A study of Mus musculus with 19 samples.

Results

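The cells described here were CD4 single-positive (CD4 SP) thymocytes of OT-I mice, 338 of the 85389 cell barcodes in the 19 lanes of the series. OT-I mice carry a transgenic alpha beta T cell receptor (TCR) that recognises an ovalbumin peptide on MHC class I. This specificity directs thymocytes to the CD8 lineage. The paper reports that CD8-fated cells pass through a stage with much CD4 and little CD8, which is prominent in OT-I mice. The gate used here can hold such cells, so CD4 SP names the gate and not a settled lineage. Whether the members were selected on the transgenic receptor or on one of their own was not tested. A cell was a member when at most 15% of its RNA molecules were mitochondrial, at least 200 genes and 1000 antibody molecules were counted, at least 1 molecule of Trac (the TCR alpha constant gene) was present, and its CD4 antibody reached 300 while its CD8a antibody stayed below 60 per 10000 molecules of the antibodies shared by all lanes. Molecules were counted as unique molecular identifiers (UMIs). Members were thus selected on their measured CD4 and CD8a antibody levels and Trac UMIs, so these values are given below as a description and support nothing. The members came from both OT-I mice, 212 cells from replicate 1 and 126 from replicate 2, and 13469 cells of the whole series met the same rule.

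The study profiled mouse thymocytes by CITE-seq, which counts in each cell its polyadenylated RNA and, through DNA-tagged antibodies, its surface proteins, here 111 antibodies shared by all lanes. It compared lineage-restricted with wild-type thymus to follow the choice between the CD4 and CD8 fates. Used here are 2 OT-I mice, 2 OT-II mice (a transgenic receptor for the same antigen on MHC class II, which favours the CD4 lineage) and wild-type B6 replicates 4 and 5, all 4 to 8 weeks old and none of them sorted before loading. Each OT-I or OT-II mouse was 1 lane and each wild-type mouse was 2 lanes, which were summed. The AND and F5 transgenic mice of the series lack Rag1, whereas no Rag deficiency is given for the sequenced OT-I or OT-II mice. Rag2-deficient mice of both lines were used only in the paper's flow cytometry, described below with the lineage factors. The sequenced mice of these 2 lines can thus rearrange receptor chains of their own beside the transgenic ones. With 2 mice a group, p-values measure only the spread between those mice, and in fits with a term for the lanes only part of it. The exact permutation test on a single value cannot go below 0.33.

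In the thymus, CD4+CD8+ double-positive (DP) cells whose receptor binds self peptide on MHC survive and choose a lineage. Zbtb7b encodes ThPOK, the factor that fixes the helper fate, and Runx3 represses Cd4 and supports the cytotoxic fate. Intermediate CD4+CD8lo cells of both fates pass through a stage with much CD4 and little CD8, and strong self reactivity leads instead to deletion or to regulatory T cells.

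The V beta of the OT-I receptor could be followed in the RNA and told from that of OT-II mice, whose receptor also carries V beta 5. Of the Trbv12 family, Trbv12-3 gave 0 UMIs in the cells used here. The other 2 segments are Trbv12-1 at chr6:41113775-41114067 and Trbv12-2 at chr6:41119072-41119364 on the + strand of GRCm38 (V exons of GENCODE M21, sequence of the RefSeq genome). They are 293 bases long and identical at 261 of them (89.1%). The 30-base windows chr6:41113869-41113898 and chr6:41119166-41119195, at the same offset in both exons, are shown because they hold 8 of the differences by which a read is assigned to one segment or the other. Capitals mark the bases that differ.
Trbv12-1: tAGcAAtgtggTctggtaCcaGcagactcT
Trbv12-2: tCTcTCtgtggCctggtaTcaAcagactcA

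Among OT-I CD4 SP cells, Trbv12-1 gave 93 of the 94 V beta UMIs in replicate 1 (98.9%, exact 95% Clopper-Pearson interval 94.2 to 100) and 86 of 88 in replicate 2 (97.7%, 92.0 to 99.7). The other 3 UMIs were 1 each of Trbv13-2, Trbv29 and Trbv31. OT-I CD8 SP cells (CD8a of at least 300 and CD4 below 150) held the Trbv12 family in 503 of 507 and 585 of 585 V beta UMIs. In OT-II CD4 SP cells the family member was Trbv12-2, with 75 of 112 and 20 of 59 UMIs, and Trbv12-1 gave 1 UMI in each mouse. Trbv12-1 was thus nearly all of the V beta UMIs in both OT-I gates, and 3' sequencing recovers few such UMIs. Intervals here cover counting error only.

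**Figure D1:**
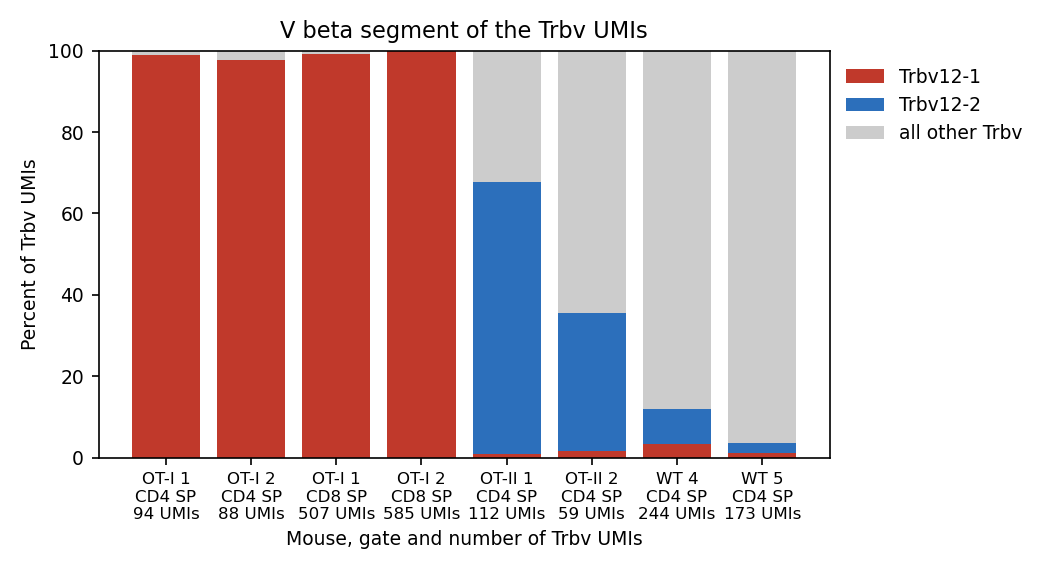
Percent of V beta (Trbv) UMIs by segment, one bar for each mouse and gate, with the number of UMIs under each bar. Trbv12-1 fills 98.9% and 97.7% of the bars of the OT-I CD4 SP cells, whereas Trbv12-2 fills 67.0% and 33.9% of the OT-II bars and the wild-type bars hold many segments.

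V beta 5 was also found on the cell surface. The TCRVb5.1_5.2 antibody had a median of 209 and 160 per 10000 on OT-I CD4 SP cells of replicates 1 and 2, against 165 and 122 on OT-I CD8 SP cells and 4.60 and 4.01 on wild-type CD4 SP cells. OT-II CD4 SP cells were higher, with medians of 513 and 405. Cells below 50 per 10000 made up 3 of 212 (1.42%, 0.293 to 4.08) and 5 of 126 (3.97%, 1.30 to 9.02) OT-I CD4 SP cells, and 94.3% and 95.4% of wild-type CD4 SP cells. On summed UMIs the antibody did not pass the test between OT-I and OT-II CD4 SP cells (log2 fold change -0.86 ± 0.33 SE, adjusted p = 0.095 by edgeR's quasi-likelihood test with Benjamini-Hochberg adjustment and TMM scaling). Scaled by the total of the shared antibodies, it was lower in OT-I (-1.24 ± 0.16, adjusted p = 4.74e-05 by the same test).

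The alpha chain gave few UMIs. The Trav14 family, which encodes the V alpha 2 of both transgenic receptors, gave 4 of 62 V alpha UMIs (6.45%) in OT-I replicate 1 and 3 of 22 (13.6%) in replicate 2. The wild-type CD4 SP cells had 18.3% and 26.5%, and OT-I CD8 SP cells 53 of 379 and 27 of 143 (18.9%), so the family was a minority of V alpha UMIs in both OT-I gates. Why it was not more frequent was not tested. Trac itself was low: members held a median of 3 and 1 Trac UMIs, against 30 and 13 in OT-II and 5 and 2 in wild-type CD4 SP cells. Of the cells in the antibody gate, 212 of 262 and 126 of 226 held a Trac UMI in the OT-I mice, and 712 of 712 and 479 of 480 in the OT-II mice. Whether the Trac and V alpha UMIs of OT-I cells come from the transgenic or from endogenous alpha chains was not tested, so the Trac requirement can select among OT-I cells in a way it does not among OT-II cells. Without it, 275 genes were called between OT-I and OT-II in the fit with the lane set described with the RNA comparison, 232 of them among the 280 called with it.

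CD4 SP cells were 7.15% (6.25 to 8.14; 212 of 2964) and 6.54% (5.48 to 7.74; 126 of 1927) of the Trac-positive cells of the OT-I mice. CD8 SP cells were 33.8% and 33.5% of the same cells. In OT-II mice CD4 SP cells were 12.7% and 16.8%, and in unsorted wild-type mice 9.39% and 12.2%. Both OT-I values lay below all 4 of these. Without the Trac requirement in numerator and denominator the shares were 7.23% and 6.76% in OT-I, 12.6% and 16.7% in OT-II and 7.05% and 8.42% in wild-type mice, so OT-I stayed below OT-II but overlapped wild-type. These denominators were not alike. DP cells were 10.5% and 7.32% of Trac-positive cells in OT-I, 58.9% and 46.6% in OT-II and 74.7% and 65.3% in wild-type mice. Set against CD8 SP cells, CD4 SP cells were 212 against 1001 and 126 against 646 in OT-I. They were 712 against 97 and 479 against 66 in OT-II, and 826 against 344 and 648 against 335 in wild-type mice. The OT-I share of CD4 SP cells followed the gate: it was 4.15% and 3.48% with CD4 of at least 400 and CD8a below 40, and 12.4% and 12.2% with CD4 of at least 200 and CD8a below 100.

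In OT-I mice the CD8a limit fell where cells were about as many on one side as on the other. Of CD4-bearing, Trac-positive cells (CD4 of at least 300), OT-I replicate 1 had 53 cells with CD8a below 20, 75 from 20 to 40, 84 from 40 to 60, 78 from 60 to 80 and 131 from 80 to 120. OT-I replicate 2 had 31, 41, 54, 47 and 82 cells in the same steps. In OT-II replicate 1 the counts fell instead, from 408 to 221, 83 and 56 before 81, and in replicate 2 from 319 to 116, 44 and 27 before 42. The last of these steps is wider than the others, and the counts describe the antibody that chose the cells. The members just inside the CD8a limit stood at 59.9 in both mice and the cells just outside at 60.5 and 60.8, and for CD4 they stood at 301 and 309.9 inside and 288 and 281 outside. Within the gate the median CD8a antibody was 33.9 and 36.8 on OT-I cells, 16.5 and 12.6 on OT-II cells and 20.3 and 20.1 on wild-type cells, and the median CD4 antibody was 653 and 608 on OT-I and 718 and 701 on OT-II cells.

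**Figure D2:**
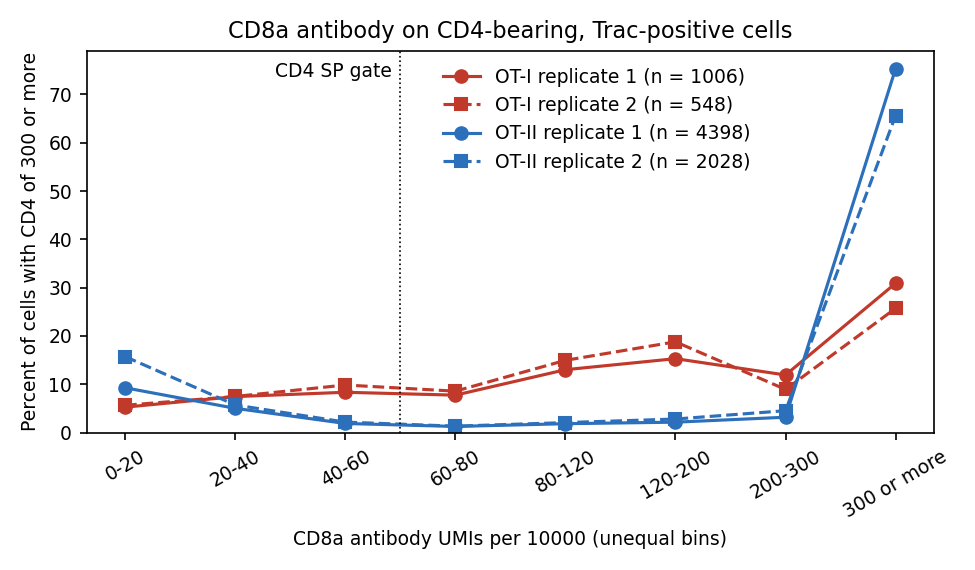
CD8a antibody (UMIs per 10000 shared-antibody UMIs, unequal bins) against the percent of CD4-bearing, Trac-positive cells, one line for each OT-I and OT-II mouse, with the gate limit of 60 marked. OT-II lines drop from the lowest bin toward the limit, and OT-I lines show no such drop.

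The label was checked against Cd4, Zbtb7b and Cd40lg (CD40 ligand, a helper-cell effector). Cd4 stood at 177 and 233 CPM (RNA UMIs scaled to the same total in every sample) in OT-I CD4 SP cells of replicates 1 and 2, 186 and 202 in OT-II and 228 and 266 in wild-type, and at 3.89 and 7.43 in OT-I CD8 SP cells. Zbtb7b (chr3:89377644-89394776, - strand, GRCm38) stood at 50.1 and 79.5 CPM in OT-I, 87.0 and 94.9 in OT-II and 86.4 and 103 in wild-type CD4 SP cells, and at 0.0926 and 1.19 in OT-I CD8 SP cells. Both OT-I values lay below all other CD4 SP values and far above the CD8 SP cells. Cd40lg stood at 36.2 and 84.9 CPM in OT-I, 28.6 and 118 in OT-II and 42.5 and 81.6 in wild-type CD4 SP cells, which overlapped, and at 3.8 and 7.43 in OT-I CD8 SP cells. Cd4 belongs with the antibody that chose the cells, so the check rests on Zbtb7b and Cd40lg. These set the OT-I cells apart from CD8 SP cells but not from CD4+CD8lo intermediate cells, which the gate can hold, so CD4 SP is used here as the name of the gate.

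At a common depth, with each cell thinned to 1000 RNA UMIs, a Zbtb7b UMI was seen in 4.25% and 8.00% of OT-I CD4 SP cells, 9.15% and 7.61% of OT-II CD4 SP cells and 0% and 0.465% of OT-I CD8 SP cells. The exact interval of the 0 of 1001 cells of replicate 1 reached 0.368%. Runx3 was seen in 11.3% and 13.6% of OT-I CD4 SP cells, 5.63% and 8.88% of OT-II CD4 SP cells, and 20.5% and 36.3% of OT-I CD8 SP cells. At this depth 1 of 212 and 1 of 125 OT-I CD4 SP cells held both factors, and at 2000 UMIs a cell 3 of 212 and 2 of 105. Before thinning, 24 of 212 (11.3%) and 7 of 126 (5.56%) held a UMI of each, against 99 of 712 (13.9%) and 20 of 479 (4.18%) in OT-II and 1 of 1001 and 3 of 646 OT-I CD8 SP cells. Doublets were not called and free RNA was not removed, so these counts do not show that a cell expressed both factors. By protein staining, the paper found few positively selecting thymocytes with both ThPOK and RUNX3. They were seen in Rag2-deficient OT-I and in wild-type mice, but not in Rag2-deficient OT-II mice. The paper proposes that such OT-I cells were moving toward the CD8 lineage. Whether the members here are such cells was not tested. Before thinning the median RNA UMIs were 5889.5 and 2698.5 in OT-I CD4 SP and 9229 and 4350 in OT-I CD8 SP cells.

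Depth split the libraries the same way in all 3 genotypes. The lanes numbered 1 to 4 in the sample titles (OT-I replicate 1, OT-II replicate 1 and wild-type replicate 4) gave CD4 SP cells a median of 4905 to 6034 RNA UMIs, and the lanes numbered 8 to 11 (the second mouse of each genotype) 2320 to 2698.5. The summed RNA UMIs of OT-I CD4 SP cells were 1297824 and 364969. Replicate 1 and OT-II replicate 1 deviated together from their group means (correlation 0.492 over 8873 genes), as did replicate 1 and wild-type replicate 4 (0.588). Among passing cells 1 gated barcode was shared between OT-I replicate 1 and OT-II replicate 2, and no other pair of these 4 libraries shared a gated barcode.

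OT-I CD4 SP cells were set against those of OT-II mice, whose transgenic receptor favours the CD4 lineage. UMIs were summed for each mouse and compared between OT-I and OT-II by edgeR's quasi-likelihood test, with wild-type mice in the same fit. As designed, with no term for the lanes, 0 of 8869 genes passed an adjusted p of 0.05 (percent called 0), 316 had an unadjusted p below 0.05 and DESeq2's Wald test called 20. With the lane set as a term, which gives OT-I and OT-II mice the same levels as their replicate number and was chosen after the data were seen, edgeR called 280 genes (3.16%), 136 higher (1.53%) and 144 lower (1.62%) in OT-I. Without OT-I replicate 1, the deeper OT-I library, 34 genes were called, 31 of them among the 280, and 1 of the 279 tested again changed direction. The lone OT-I mouse is then assumed to vary like the other groups. The counts were 189 without OT-I replicate 2, 266 without OT-II replicate 1 and 469 without OT-II replicate 2. Fold changes and adjusted p-values below are from the fit with the lane set. In the fit without it the adjusted p of each gene named was above 0.05. The term takes out the shift that mice of a lane set share, so those p-values measure the spread left after it. The common dispersion, edgeR's measure of that spread, was 0.0127 with the term and 0.107 without it.

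Of the 70 named genes called in this fit, 11 were called in every one of 12 further fits, which changed the gate, the cell filters, the scaling or left out each mouse in turn. They were Bcl2l11, Nr4a1, Nr4a3, Tnfrsf9, Ikzf2, Cd69, Gimap4, Arhgap20, Lad1 and Actn2, all higher in OT-I, and Ly6a, lower in OT-I. Trdc was called in each of the 11 fits that tested it. Without OT-I replicate 1, 54 of the 70 were not called, and with the stricter gate 36 were not. With cells holding Cd79a, Lyz2, H2-Aa or Cd74 left out, 24 of the 70 were not called. The lists and genes named were picked with earlier results of these data known.

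Genes on the list of strong or deleting receptor signals rose in 6 of 11 tests, where 1.53% of all genes did. Bcl2l11 (chr2:128126038-128162547, + strand), which encodes the death mediator BIM, stood at 189 and 205 CPM in OT-I CD4 SP cells and 24.5 and 28.8 in OT-II, with 61.0 and 102 in wild-type CD4 SP cells and 29.6 and 56.2 in OT-I CD8 SP cells. Both OT-I CD4 SP values lay above all the others. The difference from OT-II was 2.84 ± 0.20 on the log2 scale (SE, adjusted p = 2.44e-09), and it was 1.38 ± 0.17 against wild-type (adjusted p = 2.65e-05). At 1000 UMIs a cell, a Bcl2l11 UMI was seen in 12.7% and 11.2% of OT-I and 3.1% and 2.75% of OT-II CD4 SP cells.

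Gadd45b, a stress and NF-kappaB response gene, stood at 99.4 and 16.4 CPM in OT-I and 1.52 and 2.54 in OT-II CD4 SP cells, with 18.7 and 7.72 in wild-type. Both OT-I values lay above OT-II, replicate 1 far above replicate 2, and the log2 fold change of 5.33 ± 0.46 (adjusted p = 6.75e-08) was not called without OT-I replicate 1. The 6 that rose, of 14 listed, were Bcl2l11, Gadd45b, Cd200, Nfkb1, Nfkb2 and Relb, with 0 lower and a median log2 fold change of 0.86, against -0.0039 over all genes tested. Nfkb2 stood at 31.6 and 41.1 against 8.60 and 8.47 CPM, and Relb, its partner in the alternative NF-kappaB pathway, at 46.2 and 49.3 against 15.2 and 12.7. All 6 were still called with the stricter gate. Without OT-I replicate 1 only Bcl2l11 was (Cd200 adjusted p = 0.390, Gadd45b and Nfkb1 0.153, Nfkb2 0.127, Relb 0.060), and Nfkb1 was called in 1 of the 4 fits without 1 mouse. Against wild-type CD4 SP cells only Bcl2l11 and Gadd45b of the list were called, both higher, where 0.789% of all genes were higher.

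TCR target genes rose in 6 of 16 tests, against the same 1.53% of all genes. Nr4a1, the immediate early gene that encodes NUR77, stood at 136 and 153 CPM in OT-I, 18.7 and 49.1 in OT-II and 84.4 and 95.4 in wild-type CD4 SP cells, and at 12.7 and 25 in OT-I CD8 SP cells. The OT-I values were the highest of these groups, and the log2 fold change from OT-II was 2.26 ± 0.25 (adjusted p = 3.19e-06). Its relative Nr4a3 stood at 46.2 and 24.7 CPM in OT-I, 1.26 and 2.54 in OT-II and 23.3 and 18.2 in wild-type, a log2 fold change of 4.59 ± 0.45 (adjusted p = 5.30e-07) from OT-II. The 6, of 18 listed, were Nr4a1, Nr4a3, Nfkbid, Nfkbia, Egr1 and Junb, with 0 lower and a median of 0.73. With the stricter gate 4 of the list were called. Over the 12 further fits Egr1 was at 0.48 to 1.04 and Junb at 0.33 to 0.79 on the log2 scale. In 11 of the 16 both OT-I values lay above both OT-II values, a pattern shown by 15.5% of all genes tested. Cd5, whose protein reports receptor signal strength, stood at 213 and 189 against 151 and 125 CPM and did not pass (adjusted p = 0.098). Against wild-type 1 gene of the list was called, Nfkbid, where 0.789% of all genes were higher.

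**Figure D3:**
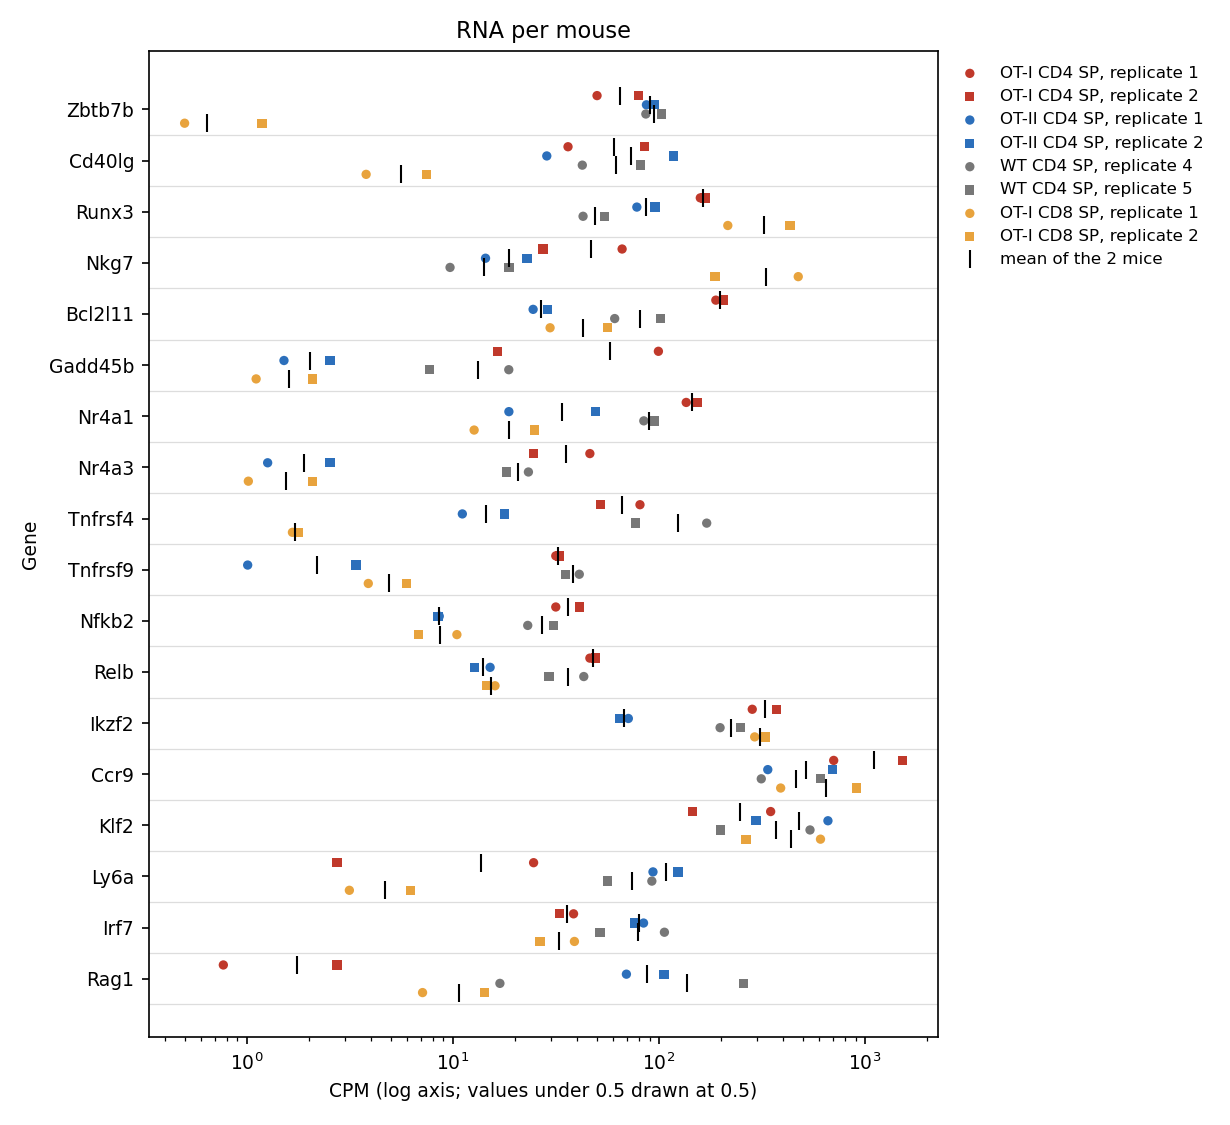
RNA level (CPM, log axis) of named genes, one point for each mouse, by group, with the mean of the 2 mice as a line. Bcl2l11, Nr4a1 and Nr4a3 are higher in both OT-I CD4 SP samples than in both OT-II samples, and Zbtb7b is far higher in every CD4 SP sample than in OT-I CD8 SP cells.

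Genes linked to regulatory T cells rose in 3 of 12 tests, where 1.53% of all genes did, and Foxp3 was not among them. Foxp3, the lineage factor of regulatory T cells, stood at 10.0 and 2.74 CPM in OT-I and 2.53 and 2.54 in OT-II CD4 SP cells and did not pass (adjusted p = 0.217). Tnfrsf9 (4-1BB) stood at 31.6 and 32.9 against 1.01 and 3.39 CPM, a log2 fold change of 4.25 ± 0.46 (adjusted p = 1.95e-06). Wild-type CD4 SP cells held 41.1 and 35.3 CPM of Tnfrsf9, above both OT-I values. Tnfrsf4 (OX40) stood at 80.9 and 52.1 against 11.1 and 17.8, and wild-type CD4 SP cells were no lower, with 170 and 77.2. Ikzf2, which encodes HELIOS, stood at 284 and 373 in OT-I against 71.0 and 64.4 in OT-II, and at 291 and 328 in OT-I CD8 SP cells. Its log2 fold change was 2.14 ± 0.15 (adjusted p = 3.23e-09), and high Ikzf2 was found in both SP gates of the OT-I thymus. Nrp1 fell by 2.05 ± 0.45 on the log2 scale (adjusted p = 0.0088), from 26.5 and 19.5 CPM in OT-II to 6.93 and 2.74 in OT-I. So 3 of the 12 tested genes rose and 1 fell. With the stricter gate Nrp1 was not called, and over the 12 further fits its log2 fold change was -3.26 to -0.93. Against wild-type CD4 SP cells 1 gene of the list was called higher and 2 lower, with a median of -0.59. Of all genes 0.789% were higher and 2.19% lower. Leaving out cells with a Foxp3 or Il2ra UMI left 297 calls, 250 of them among the 280.

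The 3 CD8 lineage genes that could be tested rose. Runx3 (chr4:135120652-135177990, + strand) stood at 159 and 167 CPM in OT-I, 78.1 and 95.7 in OT-II, 42.8 and 54.6 in wild-type CD4 SP cells, and 216 and 432 in OT-I CD8 SP cells. The OT-I CD4 SP values lay between those of the other CD4 SP cells and the CD8 SP cells, 0.88 ± 0.17 above OT-II (adjusted p = 0.0028) and 1.80 ± 0.17 above wild-type (adjusted p = 5.78e-07) on the log2 scale. Nkg7, a cytotoxic granule protein, stood at 66.3 and 27.4 against 14.4 and 22.9 CPM, with 9.7 and 18.8 in wild-type CD4 SP and 474 and 187 in OT-I CD8 SP cells, and Ctsw (cathepsin W) at 104 and 79.5 against 35.4 and 55.9. Of 14 listed genes 3 could be tested, since the others were too low or belonged to the gate. All 3 rose, where 1.53% of all genes did. With the stricter gate none of the 3 was called (Runx3 adjusted p = 0.174, Nkg7 0.335, Ctsw 0.215), and without OT-I replicate 1 none was either. Over the 12 further fits Runx3 kept a log2 fold change of 0.64 to 1.00, whereas Nkg7 ranged from 0.07 to 2.67 and Ctsw from 0.19 to 1.60. Inside the gate the CD8a antibody was also higher on OT-I cells than on OT-II and wild-type cells, and its part in these genes was not tested.

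Of the CD4 lineage list 11 genes were tested, of which 1 rose and 1 fell, with a median of -0.13. Of all genes 1.53% rose and 1.62% fell. Satb1, a chromatin organiser needed for lineage choice, stood at 2046 and 1452 CPM in OT-I against 1068 and 994 in OT-II (log2 fold change 0.68 ± 0.15, adjusted p = 0.010), and of the fits without 1 mouse it was called only in that without OT-II replicate 2. St8sia6, a sialyltransferase, stood at 3.85 and 0 against 14.9 and 20.3 (-2.52 ± 0.58, adjusted p = 0.013), with 23.6 and 18.8 in wild-type. Zbtb7b was 0.65 ± 0.20 lower on the log2 scale and did not pass (adjusted p = 0.075), nor did Cd40lg (-0.15 ± 0.27, adjusted p = 0.90). Gata3 and Tox, which act upstream of Zbtb7b, did not pass either, with Gata3 at 80.1 and 230.2 against 74.6 and 131 CPM.

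Maturation genes were split, where 1.53% of all genes rose and 1.62% fell. Of the immature list 4 of 12 rose, Cd69, Ccr9, Cd24a and Itm2a, and 3 fell, Rag1, Arpp21 and Dntt. OT-II replicate 1 carried Arpp21 and Dntt, whose log2 fold changes without it were -0.18 (adjusted p = 0.952) and -0.43 (adjusted p = 0.705), while Rag1 was called without any 1 of the 4 mice. Cd69, an early activation and thymic retention receptor, stood at 131 and 178 CPM in OT-I, 40.5 and 41.5 in OT-II and 108 and 97.6 in wild-type CD4 SP cells (1.80 ± 0.19 from OT-II, adjusted p = 1.63e-06). Ccr9, a thymic homing receptor, stood at 704 and 1515 against 337 and 696. Rag1, the recombinase of DP cells, stood at 0.771 and 2.74 CPM in OT-I, 69.5 and 106 in OT-II and 16.9 and 257 in wild-type CD4 SP cells. DP cells, the source of such RNA, were 10.5% and 7.32% of Trac-positive OT-I cells, 58.9% and 46.6% in OT-II and 74.7% and 65.3% in wild-type mice, and their part in the lower Rag1, Arpp21 and Dntt was not tested.

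On the mature list 6 of 16 genes fell (1.62% of all genes did), Klf2, S1pr4, Slfn1, Ms4a4b, H2-K1 and H2-D1. Gimap4 and Gimap6 rose (1.53% of all genes did). With the stricter gate 2 of the list were called lower and 2 higher. Over the 12 further fits H2-K1 was at -1.03 to -0.30 and H2-D1 at -0.86 to -0.41 on the log2 scale. Klf2, the factor that licenses thymic exit, stood at 348 and 145 CPM in OT-I and 660 and 296 in OT-II, lower in OT-I within each lane set, although OT-I replicate 1 exceeded OT-II replicate 2. Its log2 fold change was -1.03 ± 0.15 (adjusted p = 0.00016). Ms4a4b stood at 620 and 373 against 1069 and 872 (-1.04 ± 0.15, adjusted p = 0.00014). Gimap4, which encodes a GTPase, went the other way, 521 and 485 against 210 and 205 CPM (1.22 ± 0.14, adjusted p = 5.25e-06). Wild-type cells, at 437 and 428, were close to OT-I.

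**Figure D4:**
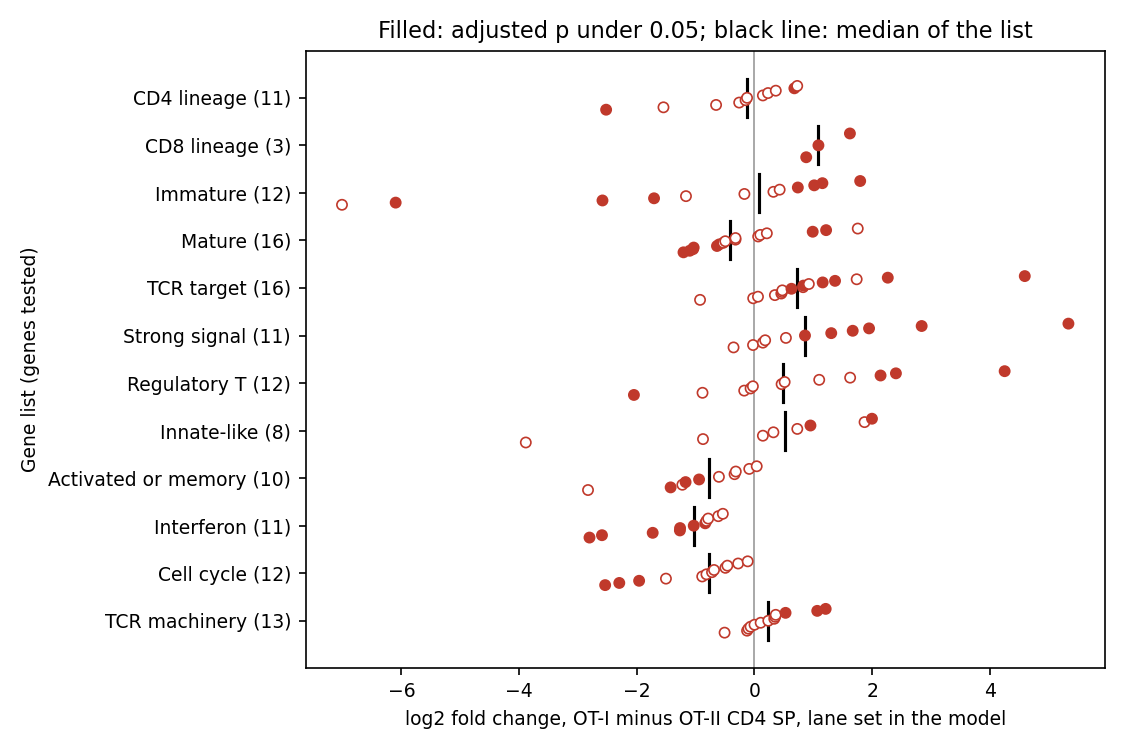
Log2 fold change of each tested gene, OT-I minus OT-II CD4 SP, with the lane set in the model, by gene list (tested genes in brackets). Filled points have an adjusted p under 0.05 and black lines are list medians. TCR target and strong signal lists hold filled points only above 0, and the interferon list only below 0.

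Interferon response genes fell in OT-I CD4 SP cells in 7 of 11 tests, where 1.62% of all genes fell. Among them were Ifit1, Ifit3, Irf7, Ly6a, Oasl2 and Usp18, while 0 rose, and the median log2 fold change of the list was -1.03. Ly6a, which encodes Sca-1, stood at 24.7 and 2.74 CPM in OT-I, 93.5 and 124 in OT-II, 92.4 and 56.3 in wild-type CD4 SP cells and 3.15 and 6.24 in OT-I CD8 SP cells (-2.59 ± 0.35 from OT-II, adjusted p = 4.89e-05). Irf7 stood at 38.5 and 32.9 against 84.2 and 76.2. Against wild-type 8 of the 11 fell, where 2.19% of all genes did. With the stricter gate 1 of the 7 was called, Ly6a, and its antibody is described with the surface proteins.

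Of the cell cycle list, 3 of 12 genes fell from OT-II (1.62% of all genes did), Birc5, Ube2c and Cdk1, and 11 of 12 fell from wild-type (2.19% of all genes did). Birc5 stood at 6.16 and 8.22 CPM in OT-I, 33.1 and 9.32 in OT-II and 70.7 and 62.9 in wild-type CD4 SP cells. Most of the OT-II signal was in replicate 1, and none of the 3 was called without that mouse. Summed over the list, OT-I CD4 SP cells held 592 and 937 CPM, OT-II 1231 and 770 and wild-type 1954 and 3180. OT-I CD8 SP cells held 4795 and 6126 CPM, so the CD8 SP gate used for comparison was richer in cell cycle RNA. Activated or memory genes fell in 3 of 10 tests, Lgals1, S100a6 and Anxa2. S100a6 turned to 0.48 without high-UMI cells and was above 0 also without cells holding Cd79a, Lyz2, H2-Aa or Cd74, and Anxa2 was at -0.45 (adjusted p = 0.731) without OT-II replicate 1. Lgals1 stood at 149 and 156 against 271 and 288 CPM (-0.94 ± 0.15, adjusted p = 0.00039). Innate-like genes rose in 2 of 8 tests, Trdc and Slamf1, where 1.53% of all genes did. Over the 12 further fits the log2 fold change of Slamf1 was 0.40 to 1.22. Zbtb16, the factor of NKT cells, was at 0 in all 4 OT-I and OT-II samples.

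Of the receptor constant genes, Trdc, Trbc1 and Trbc2 rose in OT-I over OT-II CD4 SP cells, and Trac stood lower. Trdc (chr14:54142851-54148868, + strand), the TCR delta constant gene, stood at 320 and 200.02 CPM in OT-I CD4 SP cells, 66.7 and 62.7 in OT-II and 15.9 and 16.6 in wild-type CD4 SP cells, and at 398 and 249.6 in OT-I CD8 SP cells. The log2 fold change from OT-II was 2.00 ± 0.18 (adjusted p = 1.72e-07) and from wild-type 4.09 ± 0.21 (adjusted p = 4.28e-12). Trbc2, a TCR beta constant gene, stood at 10301 and 5937 CPM in OT-I against 3961 and 2583 in OT-II (1.21 ± 0.16, adjusted p = 4.10e-05). Trac, which the gate used and no test covered, had 515 and 606 CPM in OT-I, 6017 and 5914 in OT-II and 844 and 1075 in wild-type. The near-identical Trbc1 and Trbc2 can share reads, so the split between them is uncertain.

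Among all genes, 122 were called higher in OT-I with both mice above both OT-II mice. After receptor segments and unnamed gene models were set aside, the largest was Mme (chr3:63241537-63386030, + strand), the surface peptidase CD10. It had 36 and 7 UMIs in the OT-I mice (27.7 and 19.2 CPM) and 0 in both OT-II and both wild-type mice, which makes it at least 44.3-fold higher than in OT-II with a floor of 3 counts over the group. OT-I CD8 SP cells held 14.8 and 15.8 CPM and OT-I DP cells 85.7 and 53.9, so Mme RNA was highest in DP cells and present in both SP gates of the OT-I thymus. The others in order were Lad1, Gadd45b, Nr4a3, Tnfrsf9, Slc15a1, Actn2, Myo6, Arhgap20 and Pyroxd2. Actn2, an actinin, stood at 67.0 and 41.1 CPM in OT-I CD4 SP, 2.02 and 5.93 in OT-II, 11.3 and 5.52 in wild-type and 67.1 and 46.1 in OT-I CD8 SP cells, near one another in both OT-I gates. Lad1 stood at 15.4 and 41.1 CPM in OT-I CD4 SP cells, 0.253 and 0.847 in OT-II, 9.34 and 35.3 in wild-type and 0 and 1.19 in OT-I CD8 SP cells. Arhgap20 stood at 37.8 and 43.8 in OT-I, 4.55 and 1.69 in OT-II, 47.4 and 59.6 in wild-type CD4 SP and 0.185 and 0.297 in OT-I CD8 SP cells. For these 2 genes OT-I CD4 SP cells stood near wild-type CD4 SP cells and apart from both OT-II and OT-I CD8 SP cells.

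Among the 126 genes called lower with no overlap, the largest were S100a9, S100a8 and Lyz2, which belong to neutrophils and macrophages. S100a9 had 970 and 34 UMIs in the 2 OT-II mice and 0 in both OT-I mice, at least 108-fold lower, or at least 16.0-fold without OT-II replicate 1. Lyz2 had 542 and 6, at least 59.1-fold lower and at least 2.82-fold without that mouse. These UMIs sat mostly in OT-II replicate 1, where the summed myeloid list was 636 CPM against 99.9 to 199 in the other 5 samples, 110 and 173 of them in OT-I. Summed B cell markers were 139 and 90.4 CPM in OT-I and 70.7 to 118 in the other samples. Erythroid markers summed to 8.48 and 214 in OT-I against 25.8 and 268 in OT-II, and the stromal list to 84.9 to 106 in all 6 samples. Of the 6 stromal genes only Pecam1 was counted often enough to be tested, so this sum need not mark stromal cells. Leaving out cells that held Cd79a, Lyz2, H2-Aa or Cd74 kept 171 of 212 and 114 of 126 OT-I cells. It kept 684 of 712 and 450 of 479 OT-II cells. In this fit 170 genes were called, 168 of them among the 280. The remaining leaders were Ly6c1, Slc5a9, Ifi44, Abca1, Sp6, Fam46a and Rag1, of which all but Rag1 were at 0 UMIs in both OT-I mice. Ly6c1, a surface antigen of naive and memory T cells, had 60 and 22 UMIs in OT-II and was at least 8.85-fold lower in OT-I.

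CD24 falls as thymocytes mature, so the comparison was repeated in cells above and below a CD24 antibody level of 115 per 10000, the median of the OT-I and OT-II cells with each mouse weighted equally. With the lane set 100 of 7046 genes (1.42%) were called in CD24-high cells, 53 higher (0.752%) and 47 lower (0.667%) in OT-I. In CD24-low cells 172 of 8197 (2.1%) were called, 93 higher (1.13%) and 79 lower (0.964%). Without the lane set 0 were called in either, with 189 and 287 at an unadjusted p below 0.05. Called in both CD24 groups were 62 genes, 62.0% of the first set and 36.0% of the second, all in the same direction, from the same mice but different cells. TCR targets rose in 4 of 14 tested genes in CD24-high and 8 of 15 in CD24-low cells, and interferon genes fell in 1 of 10 and 8 of 11. Bcl2l11 rose by 2.63 ± 0.29 in CD24-high and by 3.19 ± 0.27 in CD24-low cells on the log2 scale (adjusted p = 7.18e-05 and 4.39e-11). Nr4a1 rose by 1.33 ± 0.30 and 3.56 ± 0.35, and Ikzf2 by 1.58 ± 0.19 and 3.22 ± 0.22. Whether the CD24 groups differ was not tested.

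Surface proteins were compared by the same test without the lane set, since antibody deviations of replicate 1 did not follow OT-II replicate 1 (correlation 0.013 over 111 antibodies). Of 108 antibodies, 9 were called (8.33%), 5 higher (4.63%) and 4 lower (3.7%) in OT-I. Levels per 10000 are scaled by the total of the shared antibodies, whereas the fold changes use TMM factors, which put the median antibody 0.24 higher on the log2 scale. With the total in place of TMM, 12 were called, 5 higher and 7 lower, of which 7 were among the 9, and TER-119 and CD304 were not (adjusted p = 0.189 and 0.161). CD69, matching its RNA in direction, stood at 45.0 and 50.4 per 10000 in OT-I, 25 and 28.3 in OT-II, 63.7 and 64.8 in wild-type CD4 SP and 15.6 and 17.9 in OT-I CD8 SP cells (log2 fold change from OT-II 1.16 ± 0.32, adjusted p = 0.0049). CD54, the adhesion molecule ICAM-1, stood at 39.9 and 41.9 against 11.6 and 19.5 (1.73 ± 0.32, adjusted p = 4.62e-06). CD71, the transferrin receptor, stood at 29.1 and 21.0 against 13 and 11, with 27.7 and 19.7 on wild-type CD4 SP and 39.8 and 36.0 on OT-I CD8 SP cells. CD62L, the lymph node homing selectin, stood at 137 and 181 against 98.3 and 102, with 246 and 263 on OT-I CD8 SP cells. TER-119, an erythroid antigen, was called at levels of 1.93 and 1.83 against 0.841 and 0.771 per 10000.

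Lower on OT-I cells were CD25, Sca-1, Ly-6C and CD304. Sca-1, the product of Ly6a, stood at 47.3 and 36.6 per 10000 in OT-I, 126 and 214 in OT-II, 116 and 99.4 in wild-type CD4 SP and 12.6 and 19.6 in OT-I CD8 SP cells (-1.64 ± 0.33 from OT-II, adjusted p = 3.84e-05). CD25, the alpha chain of the IL-2 receptor, stood at 4.70 and 3.15 against 19.5 and 15.8 (-1.77 ± 0.30, adjusted p = 1.28e-06), while its RNA, Il2ra, at 14.6 and 19.2 against 27.3 and 33 CPM, did not pass. On wild-type CD4 SP cells CD25 stood at 6.71 and 10.4. In CD24-high cells it stood at 6.32 and 3.98 in OT-I against 30.3 and 28.5 in OT-II. In CD24-low cells it stood at 3.01 and 2.46 against 4.27 and 4.31. CD304, the product of Nrp1, stood at 3.04 and 3.76 against 10.1 and 4.99 (-0.85 ± 0.29, adjusted p = 0.047). It was not called with the lane set (adjusted p = 0.178) or with the stricter gate, which also ended the calls of CD62L (0.205) and Ly-6C (0.238). CD5, with 1835 and 1854 on OT-I and 1535 and 1676 on OT-II cells, did not pass (0.54 ± 0.35, adjusted p = 0.51), nor did GITR, ICOS, PD-1, OX-40, CD24, CD127 or the TCR beta chain. The 9 calls became 6 without OT-I replicate 1 (1 higher, 5 lower), 23 without OT-I replicate 2 (18 higher, 5 lower), 4 without OT-II replicate 1 (1 higher, 3 lower) and 5 without OT-II replicate 2 (2 higher, 3 lower).

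**Figure D5:**
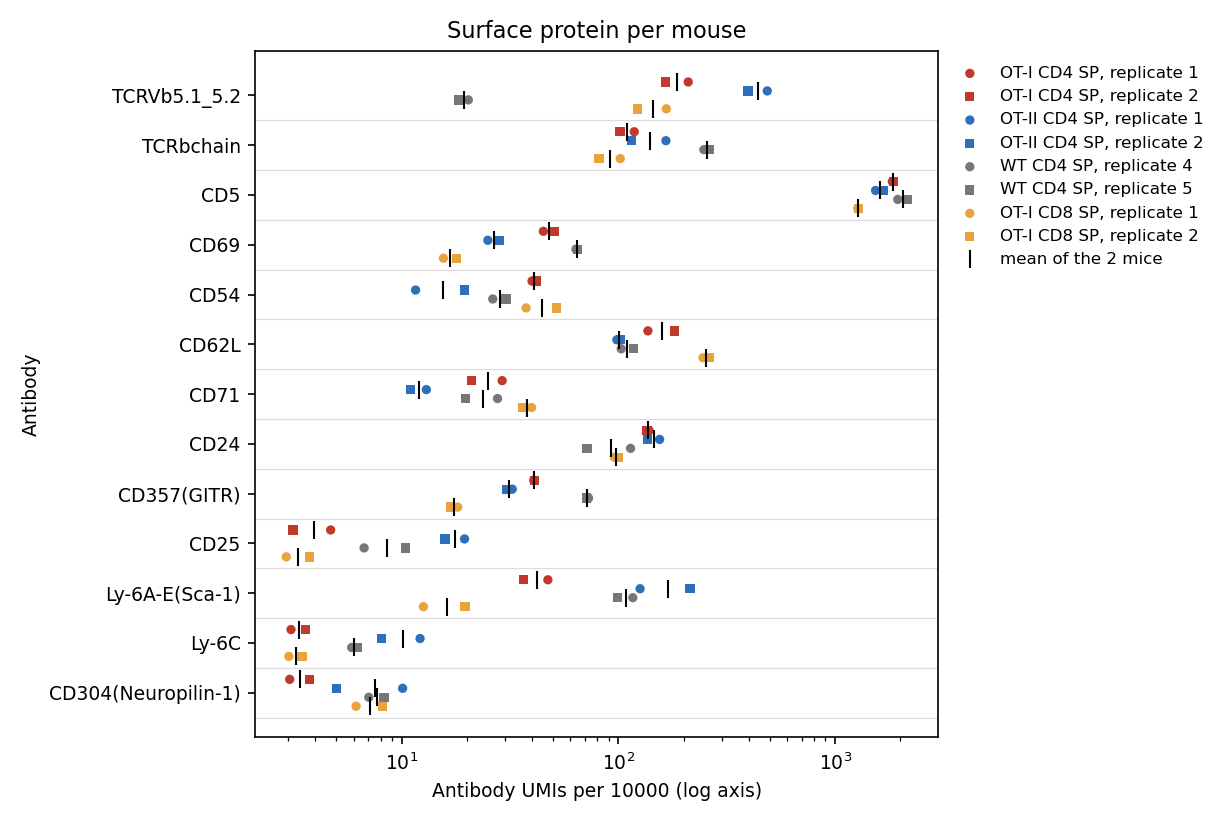
Antibody level (UMIs per 10000, log axis) of named surface proteins, one point for each mouse, by group, with the mean of the 2 mice as a line. CD69, CD54, CD62L and CD71 are higher and CD25, Sca-1 and Ly-6C lower in both OT-I CD4 SP samples than in both OT-II samples.

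Against wild-type CD4 SP cells, which are polyclonal, the OT-I mice are the same samples as in the comparison with OT-II. In the RNA, 0 of 8869 genes were called without the lane set (291 at an unadjusted p below 0.05) and 264 (2.98%) with it, 70 higher (0.789%) and 194 lower (2.19%), and 21 without OT-I replicate 1. Runx3, Nkg7, Trdc, Bcl2l11, Gadd45b and Actn2 were higher and cell cycle and interferon genes lower in OT-I, as given above. Il7r, the IL-7 receptor gene, stood at 133 and 140 CPM in OT-I against 264 and 281 in wild-type (-1.0 on the log2 scale, adjusted p = 0.00024), and at 134 and 103 in OT-II. Tnfrsf9, Relb, Nfkb2, Nr4a3, Lad1 and Arhgap20 did not pass against wild-type. Of the antibodies, 16 of 108 (14.8%) were called, 14 higher (13%) and 2 lower (1.85%), but this split rested on the scaling, since TMM put the median antibody 0.71 higher on the log2 scale than the shared-antibody total did. With the total, a scaling added here after the data were seen, 8 were called, 1 higher and 7 lower. Both scalings called 3, TCRVb5.1_5.2 higher (4.12 ± 0.38 by TMM and 3.28 ± 0.17 by the total) and TCRVb8.1_8.2 and CD86 lower. CD24 and CD62L were called higher by TMM (1.37 ± 0.33, adjusted p = 0.0011, and 1.30 ± 0.33, adjusted p = 0.0015) and not by the total (0.56 ± 0.19, adjusted p = 0.077, and 0.53 ± 0.17, adjusted p = 0.062). The TCR beta chain, ICOS, GITR, Sca-1 and I-A-I-E were called lower by the total and not by TMM, and CD69, lower in level than in wild-type, had a TMM log2 fold change of 0.36 (adjusted p = 0.64). Without wild-type replicate 4 or 5, 1 antibody was called, without OT-I replicate 1, 9, and without OT-I replicate 2, 39.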

How the data were processed

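CITE-seq libraries (10x Genomics 3' chemistry) of mouse thymus were used. The authors aligned reads to the mm10 (GRCm38) reference with Cell Ranger 3.1.0 and deposited, for each lane, raw UMI counts per gene or antibody and cell barcode, with no normalization. Features of the lanes other than the 111 shared antibodies and the genes were not used in tests. Depth was 364969 to 5672289 RNA UMIs summed per mouse over CD4 SP cells.

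Cells passed at most 15% mitochondrial UMIs, 200 genes and 1000 antibody UMIs. Doublets were not called, and cells with over 2.5 times the lane median of RNA UMIs were left out as an alternative. The mouse was the replicate: UMIs were summed per mouse over gated cells and compared by edgeR (version 4.0.16 under R 4.3.3; quasi-likelihood, TMM, filterByExpr, 3 groups in 1 fit, Benjamini-Hochberg over all genes or antibodies tested). Trac, Cd4, Cd8a and Cd8b1 and the CD4, CD8a and CD8b antibodies stayed out of the tests, since the gate used them or their partners. Levels are CPM of RNA UMIs or UMIs per 10000 shared-antibody UMIs, and intervals are exact Clopper-Pearson at 95%. DESeq2 1.42.0 was an alternative.

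Members and gene lists were chosen with earlier results of these data known. The design without a lane term called no gene, so a term for the lane set was added after the data were seen. Named are Cd4, Zbtb7b and Cd40lg, up to 4 genes of each list by smallest p, and the 10 largest changes each way among called genes whose groups do not overlap. That last part, and further list genes called with the lane set, were taken from the added fit after their values were seen. Receptor segments and gene models without a name were set aside from the largest changes. On simulated counts for OT-I against OT-II the design recovered 3.09% of 97 genes changed 2-fold and 35.4% of 96 changed 4-fold (8806 genes tested). With the lane set, on counts simulated apart, 51.0% of 96 and 89.9% of 99 were recovered (8881 genes). Each simulation gave all genes the common dispersion of its own fit, 0.107 and 0.0127. The 2 recoveries therefore cannot be used to choose between the fits. Gene positions are from GENCODE M21 (GRCm38).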

Additional observations from a re-analysis of the deposited data

How the results depend on the processing

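Counts for OT-I against OT-II RNA without the lane set rose from 0 to 97 with no low-count filter, 20 by DESeq2, 471 with the replicate number as a block (2 groups) and 280 with the lane set. The lane set gives the mice the same levels as that block, with wild-type mice in the fit as well. The antibody calls, 9 in number, were 6 with 2 groups only, 3 with 2 groups and the block and 8 with the lane set in 3 groups. The next range is of RNA without the lane set. Leaving out 1 mouse gave 0 to 1 calls (CD24-high 0 to 1, wild-type 0 to 1). With the lane set the 280 calls became 91 with the stricter gate, 170 without cells holding Cd79a, Lyz2, H2-Aa or Cd74 and 0 without the term, and 34 to 469 without 1 mouse. The wild-type (264), CD24-high (100) and CD24-low (172) counts became 0 without the term and 21 to 296, 48 to 207 and 38 to 205 without 1 mouse. Antibody calls against OT-II became 5 without high-UMI cells, 5 without those other cells and 4 to 23 without 1 mouse, and against wild-type 5 with 2 groups only, 8 by the shared-antibody total and 1 to 39 without 1 mouse. The cause of these changes was not tested. As means of the 2 OT-I mice, the share of CD4 SP cells became 3.81% and 12.3% with the stricter and looser gates, the Trav14 share 15.7% with the stricter gate, the Trbv12 share 99.4% without those other cells, and the share low in V beta 5 antibody 0.236% below 30 and 7.36% below 80. Cd40lg ranged from -0.76 to 0.42 on the log2 scale without 1 mouse and turned positive without OT-II replicate 2, and S100a6 to 0.48 without high-UMI cells and 0.17 without those other cells. With 126 cells in OT-I replicate 2, genes at a few CPM rest on single UMIs.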

Other observations

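Of the antibody features outside the shared panel, 99 in number, OT-I CD4 SP cells held 78 UMIs in replicate 1 and 46 in replicate 2, and OT-II CD4 SP cells 284 and 232. CD44 had the most UMIs of these features in all 4 libraries.

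CD4 SP cells were 2.43% and 2.46% of Trac-positive cells in the MHCII-/- mice, which are diverse in receptor, and 0.0788% and 0.326% in the F5 mice, which carry another class I receptor and lack Rag1. The MHCII-/- share is of sorted cells, so its denominator differs from that of the OT-I mice.

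The CD54 antibody, at 39.9 and 41.9 per 10000 on OT-I CD4 SP cells, was at 37.5 and 51.7 on OT-I CD8 SP cells, and CD150 stood at 139 and 115 on OT-I CD4 SP, 94.0 and 95.4 on OT-II CD4 SP and 88.3 and 72.4 on OT-I CD8 SP cells. Bcl2l11 and Nr4a1 were seen in the same OT-I CD4 SP cell in 5 of 212 and 1 of 125 cells thinned to 1000 UMIs.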
